A study of Mus musculus with 6 samples.

Results

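The NADPH oxidase complex genes were followed in cultured mouse cortical astrocytes, as 8 genes chosen by gene symbol from the 55357 genes of the deposited table: Cybb, Cyba, Ncf1, Ncf4, Rac2, Rac1, Nox4 and Hvcn1. The astrocytes came from embryos of C57BL/6 mice. In the BRAF KE–transfected group (KE, n = 3), cultures received a plasmid in which the CMV promoter drives FLAG-tagged BRAF carrying the K499E mutation, a gain-of-function change found in RASopathies, and were harvested 48 hours later. In the nontransfected group (NT, n = 3), cultures are labelled naive and non-transfected, although the protocol text attached to all 6 samples describes transfection. No group with an empty plasmid or with transfection reagent alone was analysed here, so effects of the insert, the plasmid and the reagent cannot be told apart. The CMV promoter is not specific to astrocytes, so any cell that took up the plasmid could express the insert. Astrocytes were enriched by shaking the dishes, with no sorting step described, and other glia can remain in such cultures. Nothing in the labels says that the replicates are separate preparations, so the p-values measure the spread between these samples, which may be technical.

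The NADPH oxidase of phagocytes transfers electrons from NADPH across a membrane to oxygen and so makes superoxide. Its catalytic core is a heterodimer of NOX2, encoded by Cybb, and p22phox, encoded by Cyba, and it stays inactive until cytosolic subunits, those encoded by Ncf1 and Ncf4 among them, and a Rac GTPase join it. In the brain this enzyme is best known from microglia. NOX4 is a different catalytic subunit that also binds p22phox, works without the cytosolic subunits and is found in many cell types that are not phagocytes.

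Promoter windows from RefSeq (build GRCm38.p6) were found for 4 of the 8 genes. All 4 are shown, and none was found for Ncf4, Rac2, Rac1 and Hvcn1. Of the genes shown, Cybb and Ncf1 fell together, Cyba fell less and Nox4 was not called. A link between these changes and the letters of the windows was not tested. Each window holds the 250 bases before the start of the gene, 5′ to 3′ on the strand of the gene. Capitals mark every match, on either strand, to 6 motifs. The interferon element ISRE was searched as a pair of GAAA runs with any 2 bases between them. The GAS element of STAT factors was TTCNNNGAA, and the PU.1 core was GAGGAA. For AP-1 the search was for TGA and TCA with any base between them. For NF-kappaB it was for GGG at the 5′ end and CC at the 3′ end, with any 2 bases, TT and any base between them. The TATA box was TATAAA. The window of Cybb is chrX:9469325-9469574 on the minus strand, that of Cyba chr8:122432941-122433190 on the minus strand, that of Ncf1 chr5:134229626-134229875 on the minus strand and that of Nox4 chr7:87246399-87246648 on the plus strand.
Cybb: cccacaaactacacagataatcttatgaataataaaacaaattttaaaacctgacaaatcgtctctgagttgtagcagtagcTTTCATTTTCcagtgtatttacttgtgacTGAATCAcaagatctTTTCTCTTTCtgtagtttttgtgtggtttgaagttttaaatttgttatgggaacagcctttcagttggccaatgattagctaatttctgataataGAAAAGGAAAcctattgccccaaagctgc
Cyba: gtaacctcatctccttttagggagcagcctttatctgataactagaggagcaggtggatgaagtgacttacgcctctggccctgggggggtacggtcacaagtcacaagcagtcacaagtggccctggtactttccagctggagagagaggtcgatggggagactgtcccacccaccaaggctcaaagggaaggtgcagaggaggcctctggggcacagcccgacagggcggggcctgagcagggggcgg
Ncf1: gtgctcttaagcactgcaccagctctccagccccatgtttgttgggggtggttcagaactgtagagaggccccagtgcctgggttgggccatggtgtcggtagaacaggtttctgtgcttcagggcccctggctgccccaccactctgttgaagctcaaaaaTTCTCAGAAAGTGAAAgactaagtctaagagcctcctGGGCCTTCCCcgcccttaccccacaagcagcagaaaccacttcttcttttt
Nox4: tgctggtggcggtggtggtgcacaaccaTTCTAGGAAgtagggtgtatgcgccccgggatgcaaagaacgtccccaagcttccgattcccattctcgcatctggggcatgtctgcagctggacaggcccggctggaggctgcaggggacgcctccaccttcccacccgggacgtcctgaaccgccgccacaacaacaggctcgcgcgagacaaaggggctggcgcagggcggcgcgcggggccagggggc
The Cybb window contained 3 ISRE matches, the element through which interferon acts, and 1 AP-1 match. The ISRE matches began 168, 124 and 29 bases before the start. Of all 32851 windows of this length, 2.98% held at least 1 ISRE match and 0.0122% held at least 3. The cut of 3 equals the number in the Cybb window, and the windows were not matched for GC content. These shares are therefore no test. The Ncf1 window contained 1 ISRE match that overlapped 1 GAS match, and 1 NF-kappaB match. The Nox4 window contained 1 GAS match, and Cyba had no match to any of the 6. Over all windows, GAS was present in 7.02%, AP-1 in 6.75%, NF-kappaB in 4.11%, PU.1 in 23.3% and TATA in 12.4%. The Cybb window had a GC content of 34.0%, against 54.4% for Ncf1, 60.0% for Cyba and 67.2% for Nox4. These matches are descriptions of letters in the windows and not measured binding sites.

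Expression was measured by RNA-Seq, and values are normalized counts, which are gene counts divided by a size factor per culture. Sequencing depth, estimated from the worth of 1 read, was 24490487 to 34144743 reads per culture, and KE replicate 2 was the shallowest. Braf, the transfected gene, was between 34933 and 40978 in KE and between 811 and 946 in NT, in accord with the labels of all 6 cultures, and the table does not separate plasmid from chromosomal transcripts. For the comparison of KE with NT, log2(normalized count + 1) was fitted with limma for the 15280 genes with a mean of at least 10, and genes with a Benjamini-Hochberg adjusted p-value under 0.05 were called. The log2 fold change (log2FC) is KE minus NT on this scale, which understates changes of low genes. In this fit 51.3% of tested genes were called, 26.0% lower and 25.3% higher in KE, and in 59.9% the groups did not overlap. All 8 oxidase genes were tested.

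The gene of the catalytic subunit, Cybb (ENSMUSG00000015340, GRCm39 chromosome X, 9301491 to 9354010, minus strand), fell to 8.92% of its NT level. It stood at 508, 458 and 451 normalized counts in KE, against 5870.1, 6579 and 3434 in NT. NT replicate 3 was well below the other NT cultures, yet every KE culture was lower than it by far. Group means (± SD, n = 3 each) were 472 ± 31.1 for KE and 5294 ± 1650 for NT, an 11.2-fold difference. The log2FC was -3.43 (standard error 0.19, adjusted p = 1.2e-07 from limma). Of all tested genes, 1.59% had a log2FC of -3 or lower and 5.96% one of -1 or lower.

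Cyba (ENSMUSG00000006519, GRCm39 chromosome 8, 123150422 to 123159706, minus strand), which encodes the partner that holds NOX2 and NOX4 in the membrane, fell less. Its normalized counts were 580.0, 689 and 548 in KE and 1267, 1369 and 1147 in NT. The groups did not overlap, and KE was at 48.0% of NT, at a log2FC of -1.06 (limma, standard error 0.10, adjusted p = 6.9e-06). Within a culture, the log2 ratio of Cyba to Cybb normalized counts was 0.19, 0.59 and 0.28 in KE and -2.21, -2.26 and -1.58 in NT. The ratio was thus higher in every KE culture, by 2.37 on the log2 scale, with a two-sided exact permutation p of 0.1, the smallest that 3 against 3 cultures allow. Every KE culture thus held more Cyba per Cybb count than any NT culture.

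Ncf1 and Ncf4, which encode cytosolic subunits, fell about as far as Cybb. Ncf1 (ENSMUSG00000015950, GRCm39 chromosome 5, 134248907 to 134258479, minus strand) encodes p47phox, the organizer that docks the cytosolic complex on p22phox. Its normalized counts were 155, 202 and 165 in KE and 2051, 2058 and 1668 in NT. The log2FC was -3.47 (standard error 0.12, adjusted p = 7.0e-09 from limma), the smallest adjusted p-value of the 8 genes. Ncf4 (ENSMUSG00000071715, GRCm39 chromosome 15, 78128982 to 78146784, plus strand) encodes p40phox, which binds a phosphoinositide of phagosome membranes. Its normalized counts were 43.1, 41.7 and 19.3 in KE and 388, 458 and 298 in NT. KE replicate 3 was the lowest culture for this gene, the groups did not overlap, and the log2FC was -3.48 (standard error 0.28, adjusted p = 2.2e-06 from limma). Relative to Cybb in the same culture, the log2 ratio of Ncf1 differed by -0.03 between KE and NT and that of Ncf4 by -0.05, each with overlapping groups and an exact permutation p of 0.9.

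The Rac GTPase genes separated. Rac2 (ENSMUSG00000033220, GRCm39 chromosome 15, 78443367 to 78457429, minus strand), the Rac of blood cells, fell the furthest of the 8 genes, while Rac1 (ENSMUSG00000001847, GRCm39 chromosome 5, 143489389 to 143514493, minus strand), which nearly all cells express, stayed close to its NT level. Rac2 normalized counts were 118, 149 and 219 in KE and 2383, 2733 and 1324 in NT. As for Cybb, NT replicate 3 was the lowest NT culture, and the groups did not overlap. The log2FC of Rac2 was -3.70 (standard error 0.26, adjusted p = 7.2e-07 from limma), rank 88 from the lowest among the 15280 tested genes. Rac1 normalized counts were 10438, 9279 and 10035 in KE and 10739.6, 11472 and 11379 in NT. Every KE culture was below every NT culture, but the mean in KE was still 88.6% of that in NT, at a log2FC of -0.18 (limma, standard error 0.06, adjusted p = 0.030). This call was lost when KE replicate 2, NT replicate 2 or NT replicate 3 was left out, with adjusted p = 0.10, 0.091 and 0.084 from limma, and without the variance trend (adjusted p = 0.084).

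Within a culture, the log2 ratio of Rac2 to Rac1 normalized counts was -6.45, -5.95 and -5.51 in KE and -2.17, -2.07 and -3.10 in NT. The ratio was lower in every KE culture, by a mean difference of -3.52 on the log2 scale (exact permutation p = 0.1, two-sided, the smallest possible). The remaining Rac gene, Rac3, moved the other way, with 261, 283 and 260.2 normalized counts in KE and 179, 208 and 184 in NT (log2FC 0.50, adjusted p = 0.0040 from limma). Per kilobase of merged exon, Rac2 made up 22.1%, 23.3% and 13.0% of the 3 Rac genes in the NT cultures and 1.4%, 1.94% and 2.65% in the KE cultures. The share of Rac1 went from 76.5% ± 5.55 (SD, n = 3) to 90.4% ± 0.99 (SD, n = 3), and that of Rac3 went from 4.0% ± 0.17 to 7.57% ± 0.75 (SD, n = 3).

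**Figure D1:**
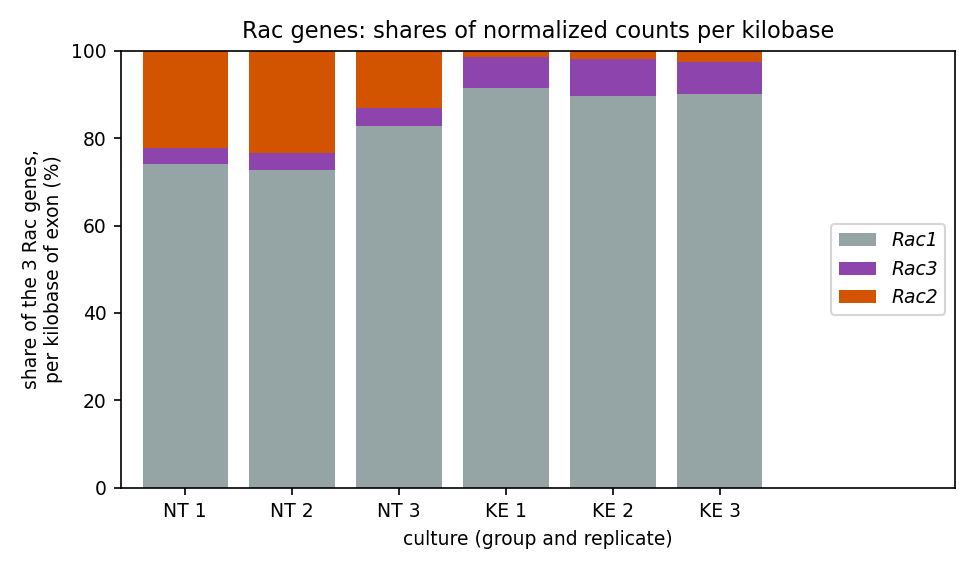
Share of Rac1, Rac2 and Rac3 in their summed normalized counts per kilobase of merged exon (%, vertical axis) for each of the 3 NT and 3 KE cultures (horizontal axis). Rac2 takes 13.0% to 23.3% of the NT bars and 1.4% to 2.65% of the KE bars.

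Hvcn1 (ENSMUSG00000064267, GRCm39 chromosome 5, 122344867 to 122382736, plus strand) encodes the voltage-gated proton channel that carries protons out to balance the charge moved by NOX2. Its normalized counts were 292, 321 and 249.7 in KE and 949, 905 and 809 in NT. The groups did not overlap, and the log2FC was -1.63 (standard error 0.11, adjusted p = 5.1e-07 from limma), which placed Hvcn1 between Cyba and the pair Ncf1 and Ncf4. The ratio of Hvcn1 to Cybb in the same culture was higher in every KE culture, by 1.80 on the log2 scale (exact permutation p = 0.1, the smallest possible).

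Nox4 (ENSMUSG00000030562, GRCm39 chromosome 7, 86895304 to 87047918, plus strand) was the only one of the 8 genes that was not called. Its normalized counts were 105, 181 and 164 in KE and 92.2, 124 and 99.9 in NT, so KE replicate 1 lay within the NT range while the other KE cultures lay above it. The log2FC was 0.48 (standard error 0.21, 95% interval 0.02 to 0.94, adjusted p = 0.076 from limma). Nox4 was called higher under 3 of 14 alternatives, among them without KE replicate 1 (log2FC 0.72, adjusted p = 0.010 from limma) and under quantile normalization (log2FC 0.62, adjusted p = 0.028 from limma), and its adjusted p ranged from 0.010 to 0.25 over all of them. The log2 ratio of Nox4 to Cybb normalized counts moved from -5.60 ± 0.46 (SD, n = 3) in NT to -1.68 ± 0.50 (SD, n = 3) in KE.

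**Figure D2:**
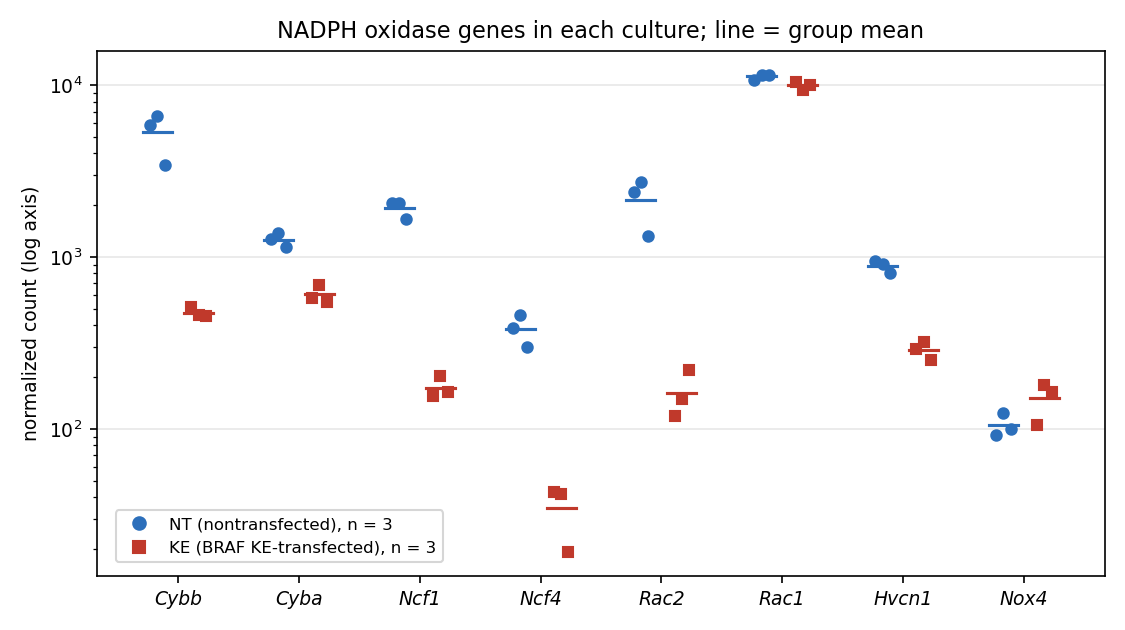
Normalized counts of the 8 NADPH oxidase genes (log axis) in each NT culture (blue circles) and KE culture (red squares), in replicate order, with a line at each group mean. KE points lie below all NT points for 7 genes, with the largest distance between group means for Rac2, and overlap with NT for Nox4.

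Of the 8 genes, 7 were called lower and none was called higher, beside 26.0% and 25.3% of all tested genes (51.3% in either direction). At an unadjusted p under 0.05 from limma, fitted across all genes, 1 of the 8 was higher, namely Nox4, beside 28.4% of all tested genes. The KE cultures were all below the NT cultures for the same 7 genes, which held for 29.9% of tested genes, and above them for none of the 8, beside 30.1% of tested genes. The median log2FC of the 8 was -2.53, and over all tested genes it was 0.0018. From the lowest log2FC to the highest, the order was Rac2, Ncf4, Ncf1 and Cybb between -3.70 and -3.43, then Hvcn1, Cyba, Rac1 and Nox4. The 95% intervals of the first 4 overlapped one another, from -4.27 to -3.12 for Rac2 and from -3.85 to -3.02 for Cybb. The interval of Hvcn1 (-1.87 to -1.39) did not reach any of them, nor did that of Cyba (-1.28 to -0.84).

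**Figure D3:**
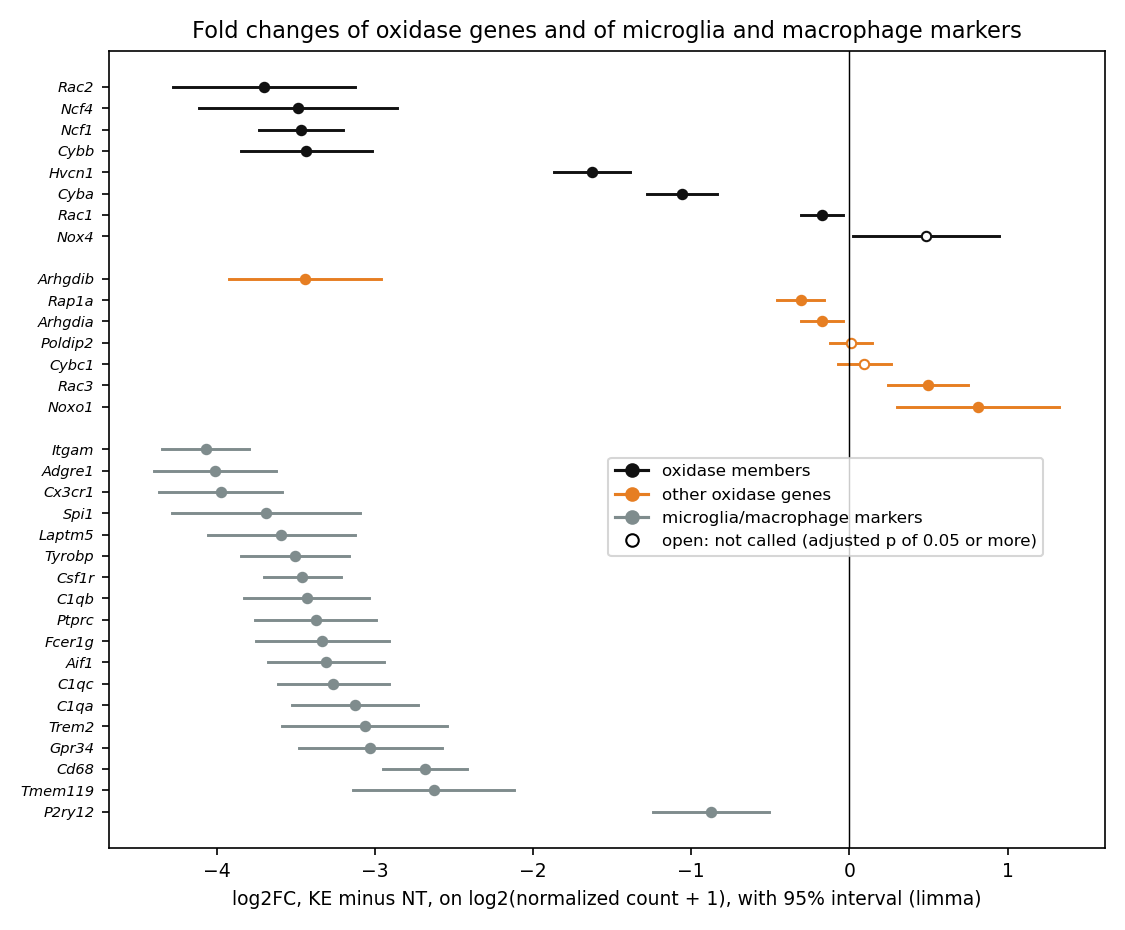
log2FC of KE minus NT (horizontal axis, log2 of normalized count + 1) with 95% intervals from limma for the 8 oxidase genes (black), 7 of the 8 tested genes of the list of other oxidase genes (orange) and 18 of the 19 tested microglia and macrophage markers (grey); open points were not called. Rac2, Ncf4, Ncf1 and Cybb lie among the markers, and Hvcn1, Cyba, Rac1 and Nox4 lie further right in that order.

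Levels can be compared between genes only per length, so normalized counts were divided by the length of the merged exons in kilobases (Gencode vM39). In NT, Rac1 had the highest level per kilobase (2342 ± 83.4), followed by Cybb (910.4 ± 284), Rac2 (605 ± 207), Cyba (547 ± 48.2) and Ncf1 (526 ± 60.9). Ncf4 (165 ± 34.8), Hvcn1 (149 ± 12.1) and Nox4 (12.4 ± 1.93) were lower (SD, n = 3 for each). The ranges of neighbours overlapped from Cybb through Ncf1 and between Ncf4 and Hvcn1, so these neighbours were not separated by their spread. In KE, Rac1 was again first (2074 ± 123), and Cyba (263 ± 32.1) now stood above Cybb (81.2 ± 5.35) with no overlap. Hvcn1 (48.4 ± 6.04), Ncf1 (47.4 ± 6.81) and Rac2 (45.7 ± 14.5) overlapped, as did Nox4 (17.7 ± 4.68) and Ncf4 (15.0 ± 5.78). With the length of the longest transcript instead, Rac2 moved below Cyba and Ncf1 in NT, and Hvcn1 below Ncf1 in KE. The level of Nox4 moved the most in proportion, to 26.8 in NT and 38.3 in KE.

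Because the phagocyte oxidase is a product of myeloid cells, cell type markers were measured beside it. Of 20 microglia and macrophage markers, 19 were tested and all 19 were called lower (26.0% of all tested genes), with a median log2FC of -3.33 (from -4.07 to -0.88). Adgre1 (log2FC -4.01), C1qa (-3.12) and Itgam (-4.07) were among the most abundant. The summed level of the list was 6628 to 9265 normalized counts in KE and 58109 to 73561 in NT, a 9.04-fold ratio of the group means. Siglech was at 0 in all 6 cultures. In bulk RNA, fewer cells of a type and less RNA per cell cannot be told apart, and the part of this difference in the oxidase values was not tested. Neutrophils also carry the oxidase. Of their 9 markers none passed the filter, S100a9, Ly6g, Elane, Mpo and Ngp were at 0 in all 6 cultures, and the list summed to 6.17 to 14.1 in KE and 14.7 to 21.1 in NT. S100a8 is listed at 0 in KE and was 10.9, 8.22 and 19.2 in NT, and Camp, Ltf and Cxcr2 were at most 11.3 in any culture. Of 7 lymphocyte markers none passed the filter, Cd3e, Cd3d, Cd3g and Ncr1 were at 0 in all 6 cultures, and Cd79b and Cd79a were at most 9.26, for sums of 1.80 to 1.88 in KE and 2.42 to 12.5 in NT. Astrocyte markers were abundant in all 6 cultures, with summed levels of 194523 to 200354 in KE and 142105 to 150693 in NT. Of these 10 genes, 7 were called higher (25.3% of all tested genes), Slc1a3 (log2FC 0.25), Glul (0.38), Gfap (0.87) and Aldh1l1 (0.72) among them, and Gja1 (-0.46) was lower. The median log2FC of this list was 0.40 (from -0.60 to 0.87).

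The oxidase genes were then expressed relative to the summed microglia and macrophage markers of the same culture, as a log2 ratio, in 8 comparisons whose exact permutation p could not go below 0.1. For Cybb the ratio was -3.70, -4.34 and -3.88 in KE and -3.62, -3.48 and -4.08 in NT, so the groups overlapped and the difference was -0.25 (exact permutation p = 0.4). Ncf4 differed by -0.30 and Rac2 by -0.51, also with overlap (exact permutation p = 0.5 and 0.2). Ncf1 was lower in every KE culture, by -0.28 (exact permutation p = 0.1), with NT ratios that lay close together, from -5.16 to -5.12. For these 4 genes the difference on this scale lay between -0.51 and -0.25, and their log2FC without the markers between -3.70 and -3.43. With the geometric mean of the markers in place of their sum, they lay between -0.70 and -0.43, and those of Cybb, Ncf1 and Ncf4 moved by over 1.5 times. With each culture left out, that of Ncf1 ranged from -0.33 to -0.23, and the others moved further. The difference of Cybb went from -0.25 to -0.06 without KE replicate 2, to -0.12 without NT replicate 2, to -0.38 without KE replicate 1 and to -0.42 without NT replicate 3. That of Ncf4 went to -0.01 without KE replicate 3 and to -0.57 without KE replicate 1, and that of Rac2 to -0.32 without KE replicate 2 and to -0.83 without KE replicate 3.

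The remaining genes were higher relative to the markers in every KE culture, each with an exact permutation p of 0.1. The summed markers were themselves lower in KE, by a 9.04-fold ratio of group means. A gene with equal normalized counts in both groups would therefore also be higher on this scale. The ratio shows only that these genes did not fall as far as the markers. The difference was 1.56 for Hvcn1, 2.13 for Cyba, 3.01 for Rac1 and 3.67 for Nox4. Cyba was at -3.51, -3.75 and -3.60 in KE and at -5.83, -5.75 and -5.66 in NT on this scale. For Cyba, Hvcn1 and Rac1 the KE level was thus below NT in normalized counts and above NT relative to the markers.

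**Figure D4:**
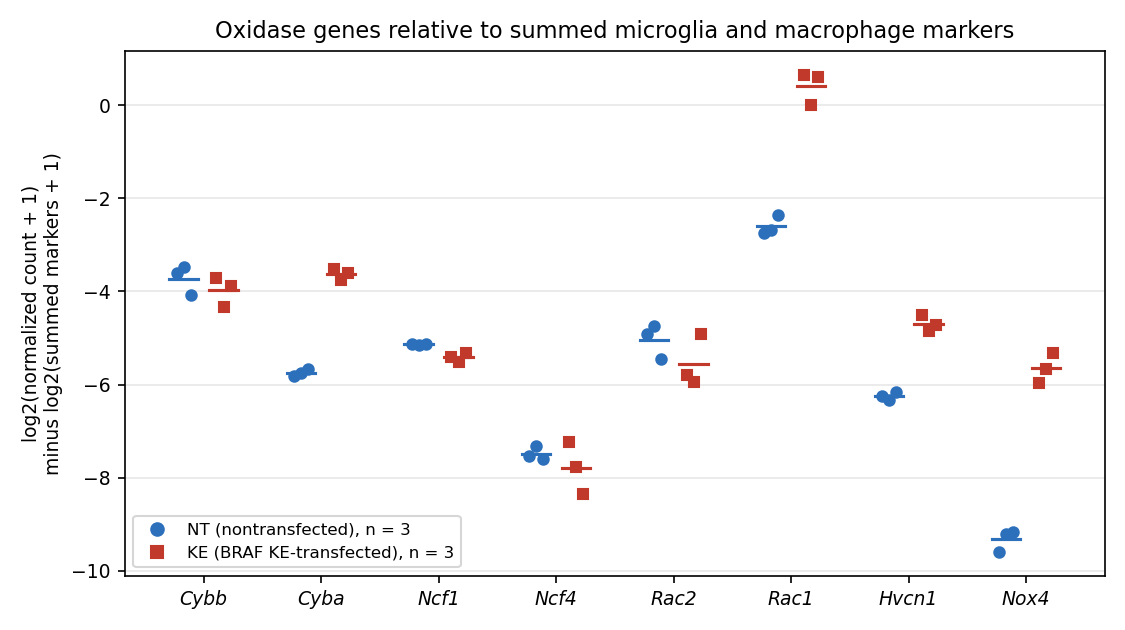
Log2 ratio of each oxidase gene to the summed microglia and macrophage markers of the same culture (vertical axis) for NT (blue circles) and KE (red squares), with group means as lines. Cybb, Ncf4 and Rac2 overlap between the groups, Ncf1 lies slightly lower in KE, and Cyba, Rac1, Hvcn1 and Nox4 lie higher in KE.

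Of 15 other genes of the oxidase family, 8 were tested, 2 were called higher, 4 lower and 2 were not called, against 25.3% and 26.0% of all tested genes. The largest fall of this list was that of Arhgdib (log2FC -3.44), the leukocyte form of the inhibitor that holds Rac in the cytosol, and its widely expressed relative Arhgdia changed little (-0.17). Rap1a, a GTPase found with the oxidase core, was lower (-0.31). Noxo1, the counterpart of Ncf1 in the NOX1 oxidase, was higher at 127, 90.7 and 81.0 normalized counts in KE and 68.2, 58.3 and 42.3 in NT (log2FC 0.81, adjusted p = 0.013 from limma), as was Rac3. Cybc1, a chaperone of the NOX2 core, had a log2FC of 0.09, and Poldip2, which binds p22phox, one of 0.01, and neither was called. The catalytic genes Nox1, Nox3, Duox1 and Duox2 and the genes Noxa1, Duoxa1 and Duoxa2 did not pass the filter. Nox1 reached 18.1 in KE replicate 1 and was at most 3.52 in any other culture, while Nox3 was low in KE (3.61, 2.50 and 2.72) and at 0 throughout NT. The other untested genes did not exceed 2.11 in any culture.

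Among 14 genes that act upstream of the phagocyte oxidase, all tested, 9 were called lower, 2 higher and 3 were not called, beside 26.0% lower and 25.3% higher of all tested genes. Dock2, a Rac exchange factor of leukocytes, fell from 1342, 1443 and 1093 normalized counts in NT to 75, 107 and 85.1 in KE (log2FC -3.85). Pik3cg (-3.83), Vav1 (-3.20) and Prkcb (-2.39) were also lower. The median log2FC of the list was only -0.27 (from -3.85 to 0.60). Pik3cd, another phosphoinositide 3-kinase gene of leukocytes, was not called (0.12, adjusted p = 0.35 from limma). The most highly expressed genes of this list moved less: Akt1 had a log2FC of -0.19, Vav3 one of -0.95, and Prex1 (0.09) was not called. Prkca (0.50) and Pla2g4a (0.60), which releases arachidonic acid, were higher.

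Of 15 genes that remove superoxide and peroxide, all tested, 7 were called higher, 1 was called lower and 7 were not called, beside 25.3% higher and 26.0% lower of all tested genes. The median log2FC of this list was 0.14. Prdx6, a peroxiredoxin that also binds the oxidase, was 45797, 45459 and 44724 in KE and 22109, 22876 and 23917 in NT (log2FC 0.98, adjusted p = 1.8e-07 from limma). Prdx1 (0.35) and Gpx4 (0.77) were higher, Prdx2 (-0.08) was not called, and Gpx1 was the gene called lower (-0.20). The superoxide dismutases Sod1 (0.01) and Sod2 (0.13), in the cytosol and in mitochondria, were not called, and the secreted Sod3 was higher (0.62).

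Marker lists of other cells were also measured, and their counts are to be read beside the same 25.3% higher and 26.0% lower of all tested genes. Of 12 vascular and fibroblast markers, 9 were tested, 3 were called higher and 3 lower, and the list summed to 2766 to 2905 in KE and 3044 to 3929 in NT. Acta2 had the largest change (log2FC -1.34), and Col1a2 (0.37), Lum (0.39) and Rgs5 (0.79) were higher, and Pdgfrb (-0.21) was not called. Of 10 neuron and oligodendrocyte markers, 8 were tested, 1 was called higher and 5 lower, with sums of 12084 to 13038 in KE and 17041 to 18196 in NT. Olig2 (-0.55) and Map2 (-0.51) were the most highly expressed of them, followed by Tubb3 (0.43) and Sox10 (-0.50). The largest change of this list was that of the myelin gene Mbp (-1.89).

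Across the 6 cultures, the tested genes whose profiles lay nearest to that of Cybb were Ccl3, Ms4a6d, Pik3r6, Bcl2a1a and Lcp2, by the root mean square difference of centred log2 values (0.09 to 0.12). Ncf1, Rac2 and Ncf4 stood at places 49, 110 and 124 by this measure, with differences of 0.25, 0.33 and 0.36, and Hvcn1 and Cyba at 453 and 737. Bcl2a1a belongs to a group of near-identical copies, so its value is uncertain. The genes nearest to Nox4 were Asb16, BC030343, Gm5424, Gm38910 and Klk8 (0.12 to 0.14), each with a mean below 50 normalized counts and none of them called. These measures describe 6 cultures in 2 groups and give no relation within a group.

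Exons of several oxidase genes overlap a gene on the opposite strand, and the strand setting of the counting is not given in the sources used here, although the library kit keeps strand. The partner of Cybb, Xk, had 226 to 300 normalized counts in every culture (log2FC -0.03, not called), and that of Rac1, Daglb, had a log2FC of -0.07 (not called). Gtf2ird2 beside Ncf1 (0.50) and Tctn1 beside Hvcn1 (0.46) were called higher, opposite in direction to the oxidase genes. Il17c beside Cyba had at most 3.60 normalized counts in any culture. Rac2 overlaps the lncRNA gene Gm63166, and the level of that gene was not examined here.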

How the data were processed

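Total RNA of 6 astrocyte cultures was sequenced from stranded mRNA libraries. The authors deposited a signal per gene, the gene count divided by a DESeq2 size factor. The submitters' processing notes name Trim Galore, STAR, Salmon and DESeq2 with build GRCh38, but all members carry mouse identifiers, and the supplemental methods give GRCm39 with Gencode gene models for mouse. Those methods mention batches without naming them, so none was modelled. Normalization removes depth, and only 69.6% to 73.8% of low values were whole multiples of 1 read to within 0.1, so reads were not recovered and no count test was run.

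The main test was limma 3.58.1 (R 4.3.3) on log2(normalized count + 1) with a variance trend and group as the only factor. Genes with a mean of at least 10 were tested, two-sided, and p-values adjusted by Benjamini-Hochberg over all 15280. Ratios within a culture were compared by exact permutation over cultures. The fit was tested on simulated data. Coordinates and exon lengths are from Gencode vM39 on GRCm39, in which 54749 of 55357 identifiers were found, and promoters from RefSeq. Alternatives were other pseudocounts (0.5 and 5), filters (none, or a mean of at least 50) and scalings (quantile or 75th percentile), no trend, the replicate number as a block, other lengths and marker averages, and leaving out each culture. The 8 genes, the lists and the motifs were chosen with earlier results of these data known. Genes named are the 8, Braf, all other oxidase genes, the 4 highest by mean of each list and those called against its majority, and the 5 nearest profiles to Cybb and Nox4. Dock2, Vav1, Pik3cg, Prkcb, Sod1, Sod3, Gpx4, Rgs5, Mbp, Pik3cd, the markers at 0 and the overlapping genes, and the ratios between 2 oxidase genes other than Rac2 to Rac1, were chosen after values were seen. A few genes of the lists are counted in the totals and sums but not reported here singly.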

Additional observations from a re-analysis of the deposited data

How the results depend on the processing

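The calls of Cybb, Cyba, Ncf1, Ncf4, Rac2 and Hvcn1 stayed lower and past the threshold under all 14 alternatives, with adjusted p from limma of at most 9.9e-04. Leaving out each culture in turn gave a log2FC of -3.72 to -3.25 for Cybb, -1.16 to -0.99 for Cyba, -3.58 to -3.39 for Ncf1, -3.68 to -3.12 for Ncf4, -4.01 to -3.49 for Rac2 and -1.71 to -1.53 for Hvcn1. Rac1 ranged from -0.21 to -0.13 and Nox4 from 0.33 to 0.72. The 2 small changes depended on the processing. Rac1 lost its call without the variance trend (log2FC -0.18). Nox4 was called higher under quantile normalization (0.62), where 1 of the 8 genes was thus called higher, and the cause was not tested. When each culture was left out in turn, 6 to 7 of the 8 genes were called lower and 0 to 1 higher. The count of called genes lay between 6776 and 8046 over the alternatives.

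Same-numbered cultures deviated together only slightly (r of 0.059 to 0.066 across genes, against -0.050 to -0.010 for other numbers). Each correlated best with its own number, but the r values are too low to settle whether the numbers are pairs. The main fit did not take them as pairs. With a replicate block in the fit, 8046 genes were called, 7669 of them shared with the fit without it, and Nox4 was called (log2FC 0.48, adjusted p = 0.034 from limma), so 1 of the 8 genes was higher. The block also gave 8 genes called higher and 2 called lower for superoxide and peroxide handling, and it changed no other call of the 8. For the ratio of Rac2 to Rac1, the permutation within pairs gave p = 0.25, the smallest it can give, for the same difference of -3.52.

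With the geometric mean of the markers in place of their sum, the difference was 1.94 for Cyba, -0.46 for Ncf1, 1.37 for Hvcn1, -0.43 for Cybb, -0.48 for Ncf4 and -0.70 for Rac2. With a pseudocount of 5 that of Ncf4 was -0.14. With the longest transcript as length, levels per kilobase were 99.2 for Cybb in KE, 673 and 323 for Cyba, 668 and 60.3 for Ncf1, 239 and 21.7 for Ncf4, 2596 and 2299 for Rac1 and 26.8 and 38.3 for Nox4 in NT and KE, which follows from the shorter length. With no filter on low genes, 1 neutrophil marker was called higher and 1 lower, and 1 lymphocyte marker lower, as more genes were then tested, and the other oxidase genes gave 3 higher and 3 lower, with Nox3 now higher and the call of Arhgdia lost. Depth limits the low values, such as Ncf4 in KE (19.3 in replicate 3) and the genes below the filter.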
